A study of Mus musculus with 2 samples.

Results

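Secretoglobins are small secreted proteins of the conducting airways, and they are described here together with other proteins that mark the secretory cells of the mouse airway. The genes were taken by their symbols in the gene lists of the data, and all 8 were found among 27998 listed genes: Scgb1a1, Scgb3a1, Scgb3a2, Bpifa1, Bpifb1, Cyp2f2, Reg3g and Cbr2. No measured value entered the choice by symbol, but earlier results of these data were known when the list was made. Their transcripts were counted in the lungs of C57Bl/6J male mice aged 3 months, 14 days after 100 µg of particles had been given intratracheally. One library is labelled control and the other fibrosis, and each holds cells of 1 mouse. The labels name titanium dioxide and crocidolite asbestos, a fibre that scars the lung, without saying which of these either mouse received. Whole perfused lungs were digested with dispase and passed through strainers before capture in 10x Genomics droplets.

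As background, club cells are the secretory cells of the bronchioles. They release Scgb1a1 (club cell secretory protein, also called uteroglobin) and Scgb3a2, and detoxify inhaled compounds with cytochrome P450 enzymes such as Cyp2f2. Scgb3a1 is a secretoglobin of larger airways. Bpifa1 (SPLUNC1) and Bpifb1 are secreted proteins of the bactericidal/permeability-increasing fold family, and Reg3g is a secreted C-type lectin that acts on Gram-positive bacteria. Cbr2 is a carbonyl reductase of lung mitochondria.

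Each unique molecular identifier (UMI) stands for 1 captured transcript. The control library held 8280 cell barcodes with 36632591 UMIs (median 3784 per barcode), and the fibrosis library held 7173 barcodes with 38090308 UMIs (median 4292). After removal of low-quality barcodes and of the highest doublet scores, 7510 and 6559 barcodes were kept. A barcode entered a class when enough markers of that class alone had a UMI, and none of the 8 genes served as a marker. A club-gated barcode had UMIs of at least 6 of 12 club markers, which include Cldn10, Aldh1a1, Gabrp and Muc5b. That gave 25 club-gated barcodes in control and 43 in fibrosis, with a median of 20448 and 12610 UMIs, and a median of 8 of 12 epithelial markers in each. They also held a median of 6 and 7 of 12 AT2 markers, under the AT2 cut of 9, while B cell-gated barcodes held 2 and 3; the part of these transcripts in the results was not tested. Further barcodes reached the club cut together with others, 82 and 148 in all, and 49 and 73 of them also reached the ciliated cut. Those that reached exactly the club and ciliated cuts (27 and 30) are described as a class of their own, which was made after the gates had been seen. The libraries shared 89 deposited barcodes, and no barcode reached the club cut in both. Levels are the summed UMIs of a class, scaled to 1000000 UMIs of that class (CPM), with exact Poisson 95% intervals. With 1 library per group there was no replicate check and no test. All intervals cover counting error only. Droplets also hold free RNA from broken cells, so B cell-gated barcodes (866 and 367, median 1844.5 and 2538 UMIs), which do not make these proteins, give the background of each library.

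The genes divide by where in the lung cells they were counted. Scgb1a1, Scgb3a1, Scgb3a2, Bpifa1 and Bpifb1 were counted mostly in barcodes reaching the club cut, Cyp2f2 also in ciliated-gated barcodes, Reg3g in the fibrosis library also in a few ciliated-gated ones, and Cbr2 to about equal parts in alveolar type 2 (AT2) cells and in barcodes reaching the club cut. Within the club-gated cells, 6 of 25 control and 14 of 43 fibrosis cells held at least 10 Scgb3a1 UMIs. Nearly all UMIs of Bpifa1, Bpifb1 and Reg3g lay in those cells, though not each cell held all of them. Scgb1a1, Cyp2f2 and Cbr2 were found in every cell. Scgb3a1, Bpifa1, Bpifb1 and Reg3g are shown here by the 250 bases before their transcription start (RefSeq, GRCm38.p6), because their UMIs lay mostly in the cells rich in Scgb3a1. Capitals mark CTCAAG or its reverse complement, letters that occur within the recognition sequence of Nkx2-1, a transcription factor of lung epithelium. The motif was chosen with the values known.
Scgb3a1, chr11:49663345-49663594, plus strand: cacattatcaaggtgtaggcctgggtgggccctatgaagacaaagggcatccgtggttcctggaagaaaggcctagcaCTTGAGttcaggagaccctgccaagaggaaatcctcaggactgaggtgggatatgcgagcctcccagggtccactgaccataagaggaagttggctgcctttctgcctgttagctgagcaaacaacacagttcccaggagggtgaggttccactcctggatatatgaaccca
Bpifa1, chr2:154142630-154142879, plus strand: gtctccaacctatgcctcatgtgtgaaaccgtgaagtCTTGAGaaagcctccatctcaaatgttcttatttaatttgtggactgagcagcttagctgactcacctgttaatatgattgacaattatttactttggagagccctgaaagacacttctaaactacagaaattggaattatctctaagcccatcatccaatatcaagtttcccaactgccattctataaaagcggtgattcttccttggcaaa
Bpifb1, chr2:154190568-154190817, plus strand: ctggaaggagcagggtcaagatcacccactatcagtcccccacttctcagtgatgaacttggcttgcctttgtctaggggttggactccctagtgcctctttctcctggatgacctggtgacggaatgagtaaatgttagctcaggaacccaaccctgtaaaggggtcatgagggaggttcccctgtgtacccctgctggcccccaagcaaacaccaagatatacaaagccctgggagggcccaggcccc
Reg3g, chr6:78468875-78469124, minus strand: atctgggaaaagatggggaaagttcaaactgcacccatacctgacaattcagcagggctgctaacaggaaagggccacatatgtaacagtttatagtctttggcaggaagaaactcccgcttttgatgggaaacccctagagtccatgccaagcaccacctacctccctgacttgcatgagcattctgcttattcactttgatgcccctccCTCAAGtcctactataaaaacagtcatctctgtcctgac
The letters stand once before Scgb3a1, beginning 172 bases from the start, once before Bpifa1 at 213 bases and once before Reg3g at 39 bases. They were not found before Bpifb1, at this start or at its second annotated start, nor before Cyp2f2 or Cbr2. On either strand, 13.3% of 32851 mouse promoters of the same length hold them. A match of 6 letters describes the sequence and marks no site. Bpifa1 and Bpifb1 are neighbours on chromosome 2 (154142880 to 154149219 and 154190818 to 154220369, both on the plus strand, GRCm38). The other genes lie apart, with Scgb1a1 on chromosome 19, Scgb3a2 on 18, Cyp2f2 on 7, Reg3g on 6, and Scgb3a1 and Cbr2 at separate places on chromosome 11.

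**Figure D1:**
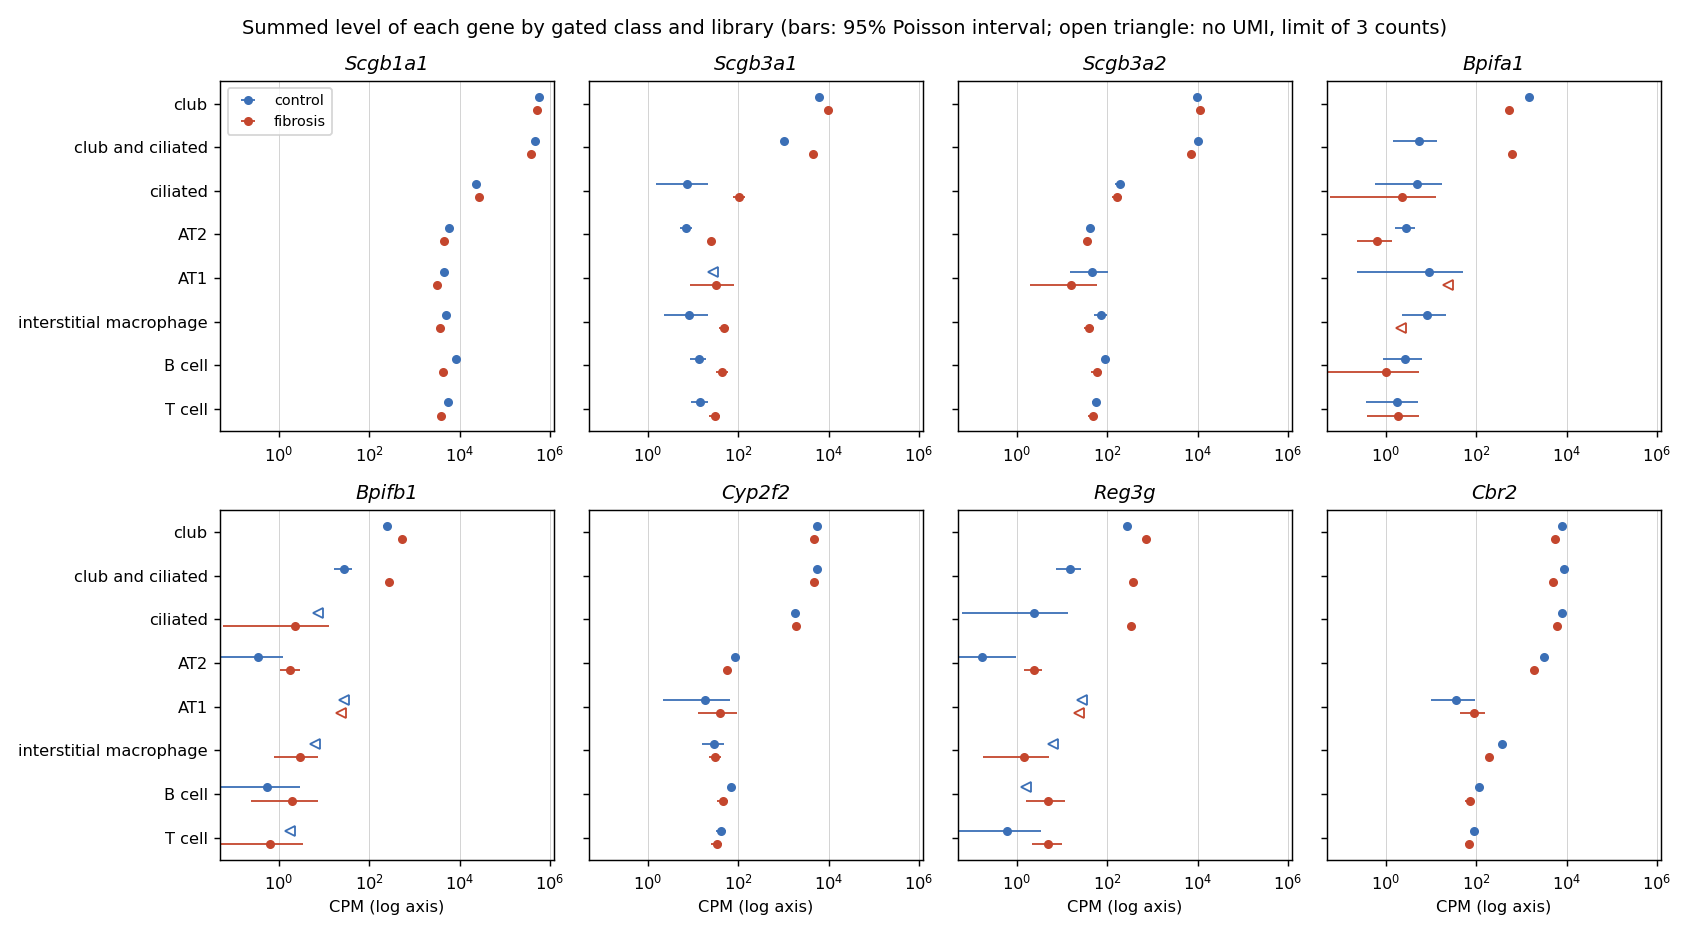
Level of each of the 8 genes in 8 gated classes, in CPM on a log axis, for the control library (blue) and the fibrosis library (red), with 95% Poisson intervals as bars. Open triangles stand for a class without a UMI and mark the limit that 3 counts would give. Scgb1a1 is at the right in both club classes and between 3115 and 8196 CPM in AT2, AT1, interstitial macrophage, B and T cells, while Cbr2 is also high in ciliated and AT2 cells.

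Scgb1a1 was the most abundant transcript of club-gated cells in both libraries. It took 58.0% of their UMIs in the control library (267066 of 460627) and 51.8% in the fibrosis library (306991 of 593167). Single club-gated cells ranged from 26.7% to 71.0% of their UMIs with a median of 56.1% in the control library, and from 12.7% to 72.1% with a median of 50.6% in the fibrosis library, so the libraries overlapped over most of that range. The log2 ratio of fibrosis over control was -0.16 (95% interval -0.17 to -0.16), and -0.37 when the 8 genes were left out of the class totals. The largest single entry of each count table was Scgb1a1, with 40675 UMIs in a control barcode of 87133 UMIs and 36123 in a fibrosis barcode of 93762, and those barcodes reached the cuts of 3 and 5 classes.

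Free Scgb1a1 was found in nearly every droplet. A UMI of it was counted in 7509 of 7510 control barcodes and in 6559 of 6559 fibrosis barcodes, although 84.8% and 89.1% of its UMIs lay in barcodes reaching the club cut. B cell-gated barcodes held 8196 CPM in control and 4319 CPM in fibrosis, a log2 ratio of -0.92 (-0.97 to -0.88). On the CPM scale club-gated cells were 70.7-fold and 120-fold above that background. In mean UMIs per barcode, both classes were lower in the fibrosis library. Club-gated cells held 10683 in control and 7139 in fibrosis, and B cell-gated barcodes 17.9 and 11.9. The unlike folds therefore do not show that club cells stood further above background in fibrosis. AT2-gated cells were not above the B cell level by any such margin, at 5888 CPM in the control library (0.718 times the B cell level) and 4538 CPM in the fibrosis library (1.05 times). Per barcode they held 35.9 and 27.1 Scgb1a1 UMIs, against 17.9 and 11.9 in B cell-gated barcodes. Over 11 other classes, from AT1 cells to fibroblasts, Scgb1a1 lay between 3392 and 8196 CPM in control and between 2485 and 4340 CPM in fibrosis. Ciliated-gated cells had higher sums, 22562 and 27043 CPM, but their median cell was at 8361 and 4973 CPM. The sums rested on 4 control barcodes and 1 fibrosis barcode with over 10% Scgb1a1. Without them the ciliated level was 9010 and 7653 CPM. The threshold of 10% was set after these values were seen.

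**Figure D2:**
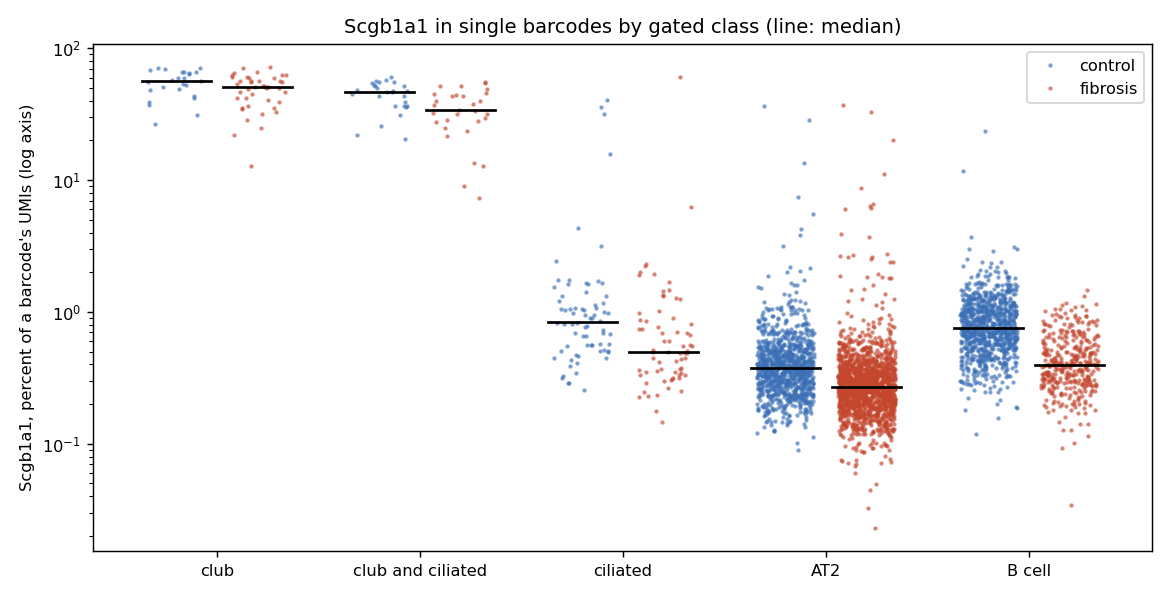
Share of Scgb1a1 among the UMIs of single barcodes, in percent on a log axis, for 5 gated classes in the control (blue) and fibrosis (red) library, with the median as a line. Club medians are 56.1% and 50.6%, while ciliated-gated medians are 0.836% and 0.497%, with a few barcodes far above.

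Among genes with at least 100 UMIs, Scgb3a2 had the levels most like those of Scgb1a1. Over 28 class levels (14 classes in 2 libraries, which share their free RNA), the Pearson correlation of log2(CPM + 1) was 0.98, and the next genes were Lrrc26 at 0.93 and Cyp2f2 at 0.93. It reached 9489 CPM in control and 11000 CPM in fibrosis club-gated cells, with 24 of 25 and 43 of 43 cells holding a UMI. Single cells spanned 0 to 36153 CPM with a median of 6522 CPM in control, and 220 to 73398 CPM with a median of 6411 CPM in fibrosis. The medians lay close together. The log2 ratio was 0.21 (0.16 to 0.27), and it became -0.35 in clusters made without the 8 genes and -0.49 over all barcodes reaching the club cut, so it had no stable direction. In B cell-gated barcodes it was 90.1 and 58.1 CPM, a log2 ratio of -0.63 (-1.09 to -0.20).

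Most Scgb3a1 UMIs lay in a few club-gated cells. The gene summed to 6213 CPM in control and 9888 CPM in fibrosis, a log2 ratio of 0.67 (0.61 to 0.74). A UMI was counted in 10 of 25 and 26 of 43 cells. At 1000 UMIs per cell the share was 20% (exact Clopper-Pearson 95% interval 6.83% to 40.7%) and 34.9% (21.0% to 50.9%), against 1.15% and 4.36% of B cell-gated barcodes, and the intervals of the club-gated shares overlap. The median club-gated cell held 0 Scgb3a1 UMIs in control and 1 in fibrosis, and the highest held 1173 and 1221. The ratio was 0.054 with 1 more marker needed per class and 1.03 without the barcode holding most of its UMIs in each library. The difference in level between the libraries thus depended on which few cells were taken. Scgb3a1 was also past 2-fold upward in classes other than airway cells. In B cell-gated barcodes it rose from 13.2 to 44.3 CPM, a log2 ratio of 1.74 (1.01 to 2.51), where 4.48% of 7723 genes were at least 2-fold higher. In AT2-gated cells it rose from 7.02 to 24.4 CPM (1.80, 1.32 to 2.32, beside 2.85% of 11283 genes), and in interstitial macrophages from 8.16 to 49.0 CPM (2.58, 1.16 to 4.50, beside 6.99% of 7170 genes). In CPM the AT2 level was below the B cell level of the same library in both. AT2-gated barcodes were deeper, with a median of 5643 and 5415 UMIs. Per barcode they held more Scgb3a1 than B cell-gated ones, 0.0428 against 0.0289 UMIs in control and 0.146 against 0.123 in fibrosis. In interstitial macrophages 4 control UMIs stood against 69, of which 21 lay in 1 barcode, so the gene reached the minimum through the fibrosis library alone. In AT2-gated cells 7 of the 8 genes reached the minimum, and besides Scgb3a1 the genes past 2-fold were Reg3g upward (1 against 22 UMIs, through the fibrosis library alone) and Bpifa1 downward (16 against 6 UMIs, beside 1.18% of all genes). The part of free RNA in these ratios was not tested.

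The cells with Scgb3a1 also held nearly all Bpifb1, Reg3g and Bpifa1. With a threshold of 10 UMIs of Scgb3a1, chosen after seeing the values, 6 of 25 control and 14 of 43 fibrosis club-gated cells were above it, and 1 and 2 cells lay between 5 and 20 UMIs. Because Scgb3a1 chose these cells, its own share of 99.7% and 99.5% is no finding. They held 113 of 114 Bpifb1 UMIs in control and 314 of 314 in fibrosis. For Reg3g they held 127 of 128 and 426 of 426 UMIs, and for Bpifa1 666 of 667 and 312 of 314. The remaining 29 fibrosis cells had a median of 14200 UMIs and not 1 UMI of Bpifb1 or Reg3g, deeper than the 14 cells with a median of 9444.

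Inside that set the 4 genes did not run in parallel. In the fibrosis library 11 of the 14 cells held Bpifb1, 7 held Reg3g and 6 held Bpifa1. In the control library 5 of the 6 held Bpifb1, 6 held Reg3g and 5 held Bpifa1. Scgb3a2 was higher in these cells than in the others, with a median of 31673 against 5758 CPM in control and 15610 against 5757 CPM in fibrosis. Scgb1a1 stood the other way, with a median cell of 404298 against 591093 CPM in control and 433302 against 532726 CPM in fibrosis. Cbr2 did the same, with 4985 against 8124 CPM and 3206 against 5597 CPM. Cyp2f2 had medians of 6536 against 5084 CPM in control and 3381 against 5282 CPM in fibrosis, so in CPM it had no common direction. The unlike shares of Scgb1a1 enter the CPM of the other genes, and their part was not tested. These are descriptions of single cells of 1 mouse each. Over all barcodes reaching the club cut, 13 of 82 and 42 of 148 passed the same threshold and held 91.2% and 98.0% of the Bpifb1 UMIs and 97.9% and 100% of the Reg3g UMIs.

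**Figure D3:**
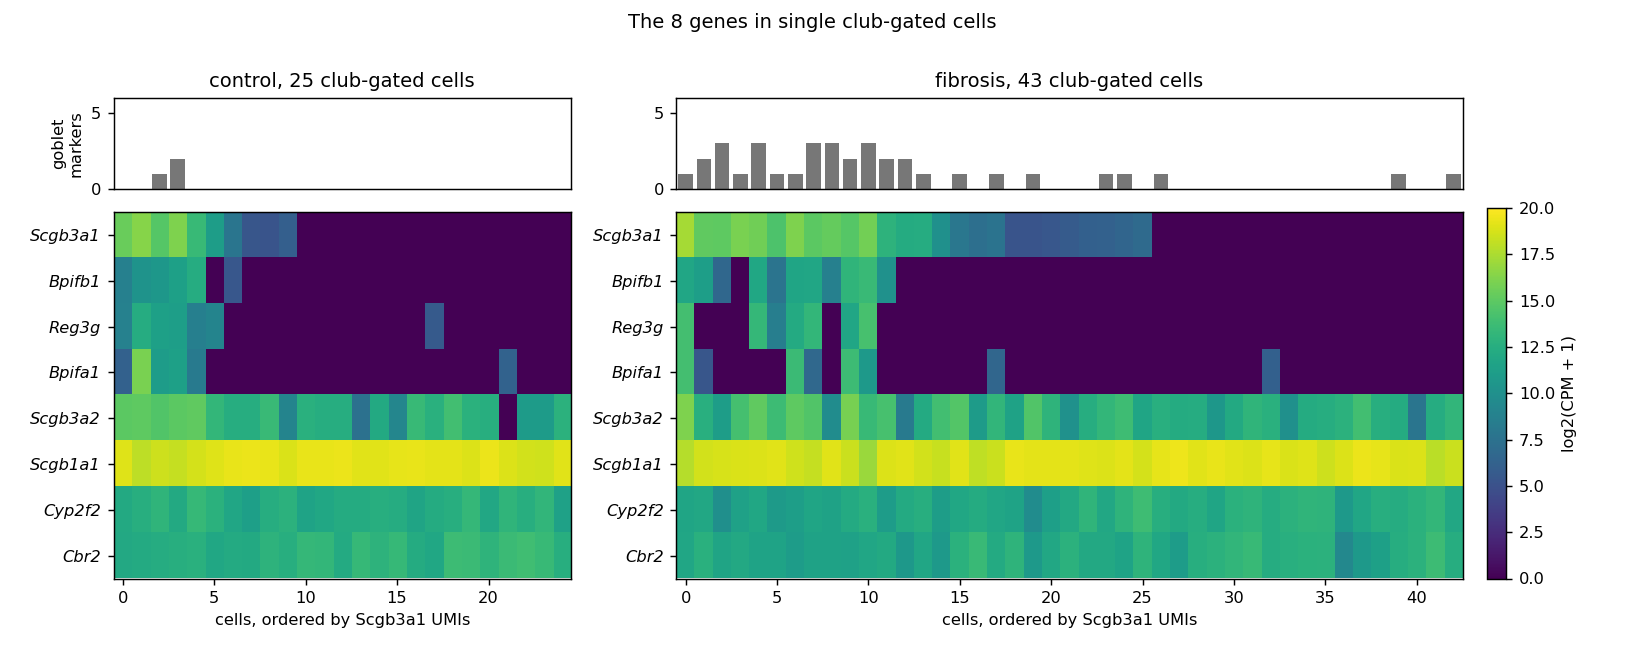
The 8 genes in each club-gated cell, as log2(CPM + 1) in colour, with cells ordered by their Scgb3a1 UMIs and the number of goblet markers with a UMI as bars above. Bpifb1 and Reg3g are confined to the left of each panel apart from 1 control cell each, and all 14 fibrosis cells with at least 10 Scgb3a1 UMIs carry a goblet marker.

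Goblet cell markers, which the gates did not use, followed Scgb3a1 in the fibrosis library. Goblet cells are the mucus-making cells of the airway, and 6 markers were counted per cell (Muc5ac, Spdef, Foxa3, Clca1, Tff1 and Gp2). All 14 fibrosis cells above the Scgb3a1 threshold held at least 1 of them, and 9 held at least 2, against 8 and 0 of the other 29. In the control library 2 of 6 cells above the threshold held at least 1 marker, against 0 of 19. Clca1, a secreted protein of goblet cells, had 760 UMIs in 13 of 43 fibrosis club-gated cells and 0 UMIs in the 25 control cells. Muc5ac, a gel-forming mucin, had 45 UMIs in 15 fibrosis cells and 2 UMIs in 1 control cell. The other markers were sparse. Gp2 had 5 UMIs in 2 of 43 fibrosis cells and 4 UMIs in 2 of 25 control cells. Spdef and Foxa3 had 4 UMIs each in fibrosis and 0 in control, and Tff1 had 0 in both libraries. Of the 6 control cells above the threshold 4 held no goblet marker, among them the pair with the most Scgb3a1 (1173 and 799 UMIs). Clusters made without the 8 genes gave 2 club clusters. In the smaller, with 5 control and 22 fibrosis barcodes, Scgb3a1 was at 41905 and 40373 CPM, and in the larger, with 43 and 77 barcodes, at 318 and 595 CPM. The share of club-cluster barcodes that fell in the smaller cluster was thus 5 of 48 in control and 22 of 99 in fibrosis, while the level within it was close to the same.

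Bpifb1 and Reg3g passed the 2-fold rule upward and Bpifa1 downward in club-gated cells. Of 2731 genes with at least 20 UMIs there, 7.1% were at least 2-fold higher and 2.31% at least 2-fold lower in the fibrosis library, and the median gene was at 0.13. All 8 genes were tested, so 2 of 8 were higher and 1 of 8 lower. Leaving the 8 genes out of the totals moved every ratio by -0.21 and the share of calls that were higher from 75.5% (194 of 257) to 52.8% (132 of 250). Bpifb1 was at 247 CPM in the control library, where 6 of 25 cells held it, and at 529 CPM in the fibrosis library, where 11 of 43 did. Its log2 ratio was 1.10 (0.78 to 1.42), or 0.89 with the 8 genes left out of the totals, which is under 2-fold. Reg3g was at 278 and 718 CPM, with 7 of 25 and 7 of 43 cells holding it, and its ratio was 1.37 (1.08 to 1.67), or 1.16 on the other totals. The share of cells with Reg3g was thus not higher in the fibrosis library, while the highest cell held 52 UMIs in control and 121 in fibrosis. Requiring 1 more marker brought Bpifb1 to 0.71 and Reg3g to 0.60.

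The fall of Bpifa1 rested on 1 barcode. Club-gated cells summed to 1448 CPM in control and 529 CPM in fibrosis, a log2 ratio of -1.45 (-1.65 to -1.26). A single control cell held 615 of the 667 control UMIs (92.2%), and the highest fibrosis cell held 126 of 314. Without the highest cell of each library the ratio was 1.48, in the other direction. In the class with both club and ciliated markers, 406 of 414 fibrosis UMIs (98.1%) lay in 1 barcode, against 4 UMIs in all of the control class. Bpifa1 was therefore a transcript of a very few cells at high level in both libraries.

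Cyp2f2 and Cbr2 were found in every club-gated cell. Cyp2f2 stood at 5477 CPM in control and 4719 CPM in fibrosis, with single cells from 2546 to 10886 CPM and from 865 to 14287 CPM. Its ratio was -0.22 (-0.29 to -0.14). Cbr2 stood at 7944 and 5444 CPM, with single cells from 3797 to 15305 CPM and from 648 to 13615 CPM. Its ratio was -0.55 (-0.61 to -0.48). Neither passed 2-fold, and the single cells of the libraries overlapped.

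Ciliated-gated cells, 72 in control and 69 in fibrosis, held both enzymes far above background. Cyp2f2 was at 1759 CPM in the control library (25.3 times the B cell level of 69.4 CPM) and at 1889 CPM in the fibrosis library (41.7 times 45.3 CPM), in 64 of 72 and 66 of 69 cells. Its median ciliated-gated cell was at 1499 and 1453 CPM, so the level did not come from a few barcodes. In AT2-gated cells Cyp2f2 was at 86.3 and 57.1 CPM, close to the B cell level on that scale. Alveolar macrophages, nearer in depth to AT2-gated cells than B cells are, held less Cyp2f2, at 31.0 and 28.8 CPM. The AT2 level was 66.2 and 45.4 CPM without 3 and 4 barcodes of over 10% Scgb1a1. Per barcode AT2-gated cells held 0.526 and 0.341 Cyp2f2 UMIs, against 0.151 and 0.125 in B cell-gated barcodes, which were less deep. In CPM Cbr2 was as high in ciliated-gated as in club-gated cells, at 7803 and 6030 CPM, with a log2 ratio of -0.37 (-0.45 to -0.30). Scgb1a1 took 58.0% and 51.8% of the club-gated totals, which lowers the CPM of other genes there. Per barcode Cbr2 was at 45.5 and 38.9 UMIs in ciliated-gated cells, against 146 and 75.1 in club-gated cells. In AT2-gated cells (959 and 1588) it was at 3074 and 1932 CPM, 27.0 and 27.3 times the B cell level, with a ratio of -0.67 (-0.70 to -0.64). The median AT2 cell was at 2851 CPM in control and 1753 CPM in fibrosis, and the control quartiles (2210 to 3724 CPM) overlapped the fibrosis ones (1198 to 2499 CPM). AT2-gated cells held 41.5% and 42.3% of all Cbr2 UMIs. Of the leukocytes, interstitial macrophages had the highest Cbr2, at 371 CPM in control and 191 CPM in fibrosis, 3.26 and 2.69 times the B cell level, with a log2 ratio of -0.96 (-1.24 to -0.68). Alveolar macrophages were at 69.5 and 60.5 CPM. The B cell background of Cbr2 itself was lower in the fibrosis library, at 113.9 against 70.9 CPM (log2 ratio -0.68, -1.09 to -0.29). With the B cell level subtracted, the Cbr2 ratio was -0.67 in AT2-gated cells, -0.37 in ciliated-gated cells and -1.10 in interstitial macrophages. Beyond this subtraction, the part of the background in the lower values was not tested. The genes with levels most like those of Cbr2 over the 28 class levels were Ooep (0.94), Mat1a (0.94) and Kcnj13 (0.94).

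Reg3g was counted in ciliated-gated cells of the fibrosis library. There were 148 UMIs in 7 of 69 cells (333 CPM), against 1 UMI in 72 control cells (2.38 CPM) and 4.92 CPM in fibrosis B cells. The cell with most held 78 UMIs, or 52.7% of the sum, and the next held 45 and 19. These 3 had 12, 8 and 12 ciliated markers, 4, 2 and 3 club markers, and 0.147%, 0.484% and 0.235% Scgb1a1, which lies at or below the ciliated median of 0.497%. The cell with 78 UMIs also held 21 UMIs of Scgb3a1, while the other pair held none. Without the leading cell the level was 161 CPM. In all, 20 fibrosis barcodes held at least 10 Reg3g UMIs, of which 12 reached the club cut and 17 held at least 10 Scgb3a1 UMIs, and 4 control barcodes did, each of which reached the club cut. Of the 8 genes, 6 had at least 20 UMIs in ciliated-gated cells, and Reg3g and Scgb3a1 (3 against 47 UMIs) were past 2-fold upward, beside 3.32% of 6299 genes. With 1 and 3 control UMIs, both could reach the minimum of 20 only by being higher in the fibrosis library.

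Barcodes with markers of both airway types held a smaller share of Scgb1a1 than club-gated cells. It took 46.6% of their UMIs for control and 37.3% for fibrosis, against 58.0% and 51.8% in club-gated cells. The amount per barcode was higher, with a median of 12694 and 7851.5 Scgb1a1 UMIs against 10688 and 6093. A median of 75 and 66 club-marker UMIs stood beside 89 and 89.5 ciliated-marker UMIs, while club-gated cells had 58 and 40 club-marker UMIs and ciliated-gated cells 93 and 92 ciliated-marker UMIs. Their median total, 26196 and 21454 UMIs, was above that of either class alone. Doublet scoring had removed 0 control and 5 fibrosis barcodes that reached the club cut. Whether these barcodes hold 1 cell or a pair was not tested. Scgb3a1 in them was at 1015 CPM in control and 4488 CPM in fibrosis, and Cyp2f2 was at 5458 and 4630 CPM. In CPM Cyp2f2 and Cbr2 (8795 and 4858 CPM) were thus close to their club-gated levels, whereas Scgb3a1 was lower than in club-gated cells in both libraries. In mean UMIs per barcode both enzymes were higher than in club-gated cells. Cyp2f2 was at 151 and 103 against 101 and 65.1, and Cbr2 at 243 and 108 against 146 and 75.1.

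**Figure D4:**
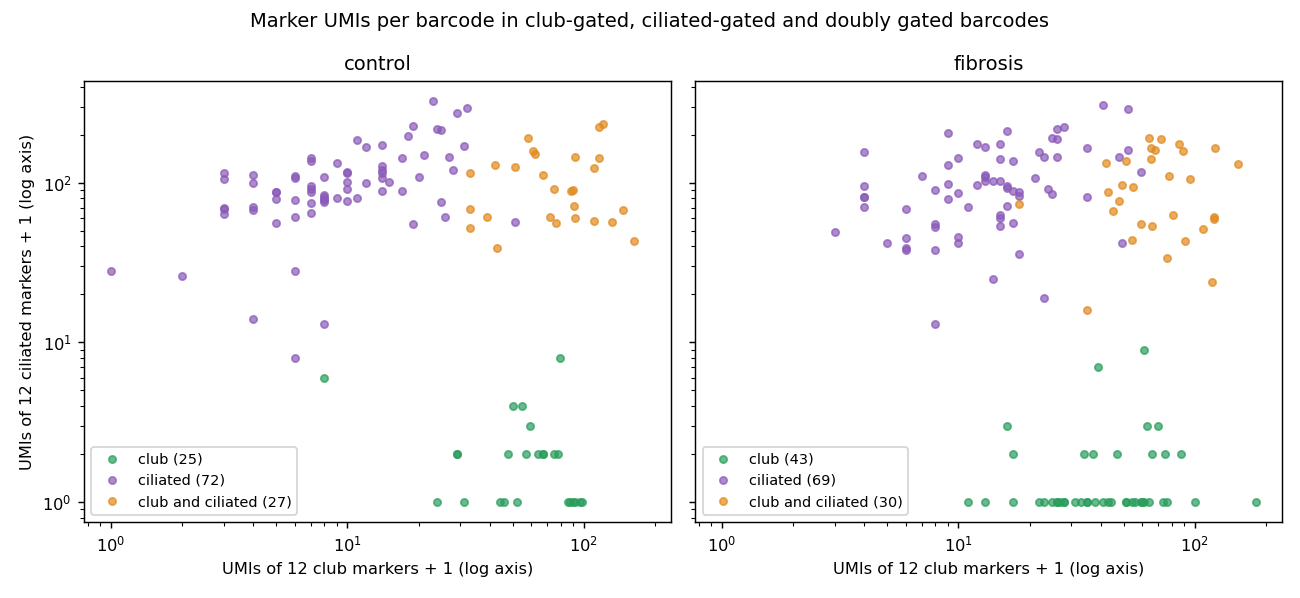
Summed UMIs of 12 club markers (horizontal) and of 12 ciliated markers (vertical) per barcode, each plus 1 on log axes, for club-gated (green), ciliated-gated (purple) and doubly gated (orange) barcodes of each library. The doubly gated barcodes have higher median club-marker UMIs than club-gated cells (75 and 66 against 58 and 40). Their median ciliated-marker UMIs are close to those of ciliated-gated cells (89 and 89.5 against 93 and 92).

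Relative to Scgb1a1, Cyp2f2 stood apart in ciliated-gated cells and Cbr2 in ciliated-gated and AT2-gated cells. Per 1000 Scgb1a1 UMIs, barcodes reaching the club cut held 3.65 control and 9.31 fibrosis Scgb3a1 UMIs. Leukocytes other than macrophages (B, T and NK cells, neutrophils, monocytes and dendritic cells) held 2.05 (1.74 to 2.40) and 9.62 (8.42 to 10.9). Alveolar macrophages held 1.93 and 14.9, and interstitial macrophages 1.61 and 13.5, so the proportion was higher in fibrosis in these 3 sets of leukocytes too. Scgb3a2 was at 18.1 and 16.4 in barcodes reaching the club cut and at 11.03 and 13.1 in leukocytes other than macrophages. Cyp2f2 was at 12.03 and 12.97 against 7.91 and 8.59, and AT2-gated cells held 14.7 and 12.6. Cyp2f2 in ciliated-gated cells stood at 78.0 and 69.9 per 1000, and Cbr2 at 346 and 223, while AT2-gated cells held 522 and 426 Cbr2 UMIs per 1000. Reg3g stood at 12.3 per 1000 in fibrosis ciliated-gated cells, against 0.562 in fibrosis barcodes reaching the club cut. Cbr2 was at 16.4 and 19.9 in leukocytes other than macrophages, at 17.3 and 19.7 in alveolar macrophages, and at 73.2 and 52.8 in interstitial macrophages.

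**Figure D5:**
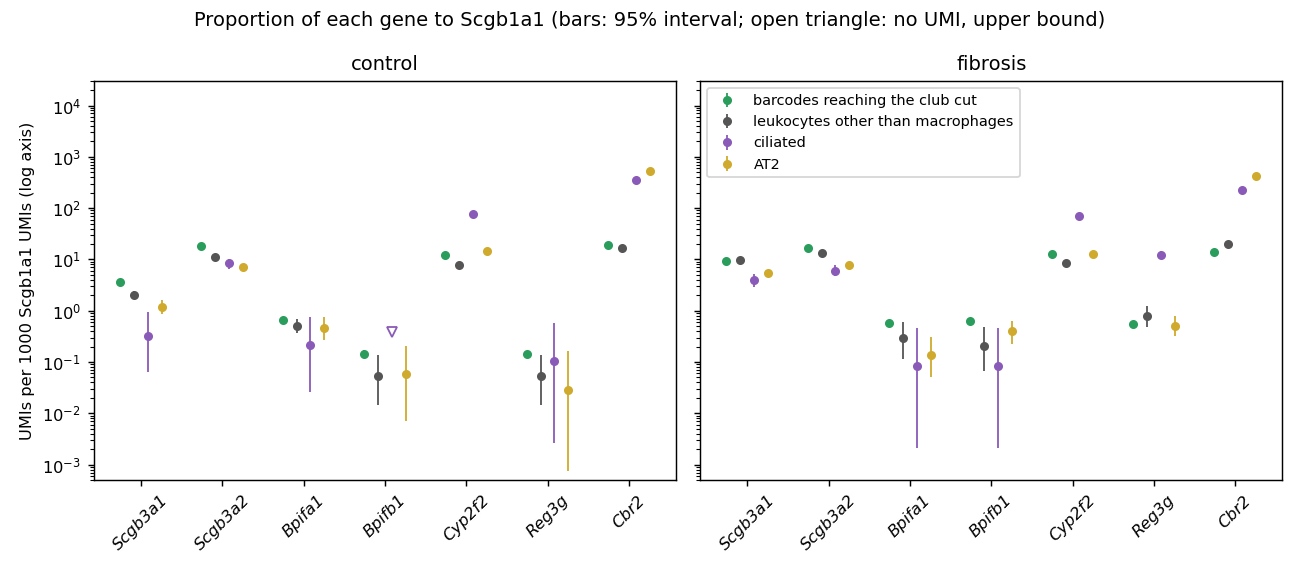
UMIs of 7 genes per 1000 Scgb1a1 UMIs on a log axis, in barcodes reaching the club cut (green), leukocytes other than macrophages (grey), ciliated-gated (purple) and AT2-gated (yellow) cells of each library, with 95% intervals, and open triangles for upper bounds at no UMI. Cyp2f2 in ciliated cells (78.0 and 69.9) and Cbr2 in ciliated and AT2 cells stand above the club barcodes and the leukocytes shown, and Scgb3a1 is higher in the fibrosis panel in all 4 sets of barcodes.

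Over the same 28 class levels, the other genes had these nearest neighbours in level. Scgb3a1 was nearest to Muc5b (0.91, a club gate marker), Tff2 (0.91) and Bpifb1 (0.88), and Bpifb1 to Chad (0.96) and Muc5b (0.95), both club gate markers, and Tff2 (0.91). Scgb3a2 was nearest to Scgb1a1, Bpifa1 (0.93) and Lrrc26 (0.92), and Bpifa1 to Scgb3a2 (0.93), Scgb1a1 (0.91) and Aldh3a1 (0.84). Cyp2f2 was nearest to Lypd2 (0.94), Pigr (0.93) and the gate marker Cckar (0.93), and Reg3g to the gate markers Chad (0.89) and Gabrp (0.86) and to Pigr (0.86). These correlations describe class sums that share libraries, and few barcodes set several of them.

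Other genes of the same families were mostly not counted in club-gated cells. Of 13 other secretoglobins in the gene lists, 12 had no UMI there, and Scgb1c1 was at 263 and 138 CPM (log2 ratio -0.92). None of 15 other BPI-fold genes reached 20 UMIs, and none of 6 other Reg genes had a UMI. Of 38 genes of xenobiotic and carbonyl metabolism, 27 were tested, 2 were at least 2-fold higher and 1 lower (7.41% and 3.7%, close to the 7.1% and 2.31% of all genes), with a median of -0.15 beside 0.13 for all genes. Gsto1, a glutathione transferase, was at 352 CPM in control and 853 CPM in fibrosis. Gstp1 was at 17.4 and 115 CPM (8 control UMIs, so it too reached the minimum through the fibrosis library), which is also its level in B cells (17.5 and 108 CPM). Sult1d1, a sulfotransferase, had 19 and 8 UMIs. Of 24 other airway secreted proteins, 20 were tested, 10 were at least 2-fold higher and 0 lower, beside 7.1% and 2.31% of all genes, and their median was 0.98, also with the gene lacking control UMIs at its bound. With the 8 genes left out of the totals, 9 were higher and 0 lower. Of the 10, 5 (Chil4, Muc5ac, Agr2, Ltf and Lcn2) reached the minimum of 20 UMIs through the fibrosis library alone, which favours a call upward. Muc5b and Chad are club gate markers. The count is therefore a description only. Retnla, a resistin-like secreted protein, was at 291 and 21247 CPM, beside 5.3 and 181 CPM in B cells. Tff2, a trefoil peptide of mucus, was at 221 and 592 CPM, and Muc5b, a gel-forming mucin and a club gate marker, at 150 and 486 CPM. Clu was at 67.3 and 248 CPM, Ltf (lactotransferrin) at 23.9 and 229 CPM, and Chil4 had 0 and 175 UMIs, at least 45.3-fold higher against a floor of 3 counts in the control class. Of 16 transcription factors of airway secretory cells, 15 were tested and 2 were higher, Cebpa (14 and 40 UMIs) and Elf3 (7 and 28 UMIs), beside 7.1% of all genes. Both reached the minimum through the fibrosis library alone, which favours a call upward, and with the 8 genes left out of the totals 1 was higher. Nkx2-1 was at 91.2 and 105 CPM and did not pass 2-fold.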

How the data were processed

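Single-cell RNA sequencing of 1 control and 1 fibrosis lung was used. The deposited values are raw UMI counts per gene and barcode, not normalized, made by the authors with bcl2fastq and Cell Ranger 1.3 on mm10, per the submitters' processing notes. The lowest deposited totals were 1460 and 1915 UMIs. Barcodes with under 200 genes or over 10% mitochondrial UMIs (255 and 228) were left out. Doublets were scored with scanpy 1.11.5, and in both libraries the top 0.8% per 1000 barcodes were removed (515 and 386). Gate cuts were set from the distribution of marker counts, without the 8 genes. The class with club and ciliated markers and the thresholds of 10 Scgb3a1 UMIs and 10% Scgb1a1 were set after values were seen. The members, lists and comparisons were chosen with earlier results of these data known. Named genes are the 8 members, up to 6 genes past 2-fold with most UMIs per list, and the 3 genes with levels most like each member's over classes. Ratios between libraries carry exact conditional binomial intervals, and gene-wide ratios add 0.5 UMI to each sum. Gene positions came from GENCODE M21, where 27722 identifiers (99.0%) were found, and promoters from RefSeq, which held 6 of the 8 genes. The ratio and interval code was tested on simulated data. Clusters were made with 2000 variable genes, 30 components and Leiden resolution 1.5 (python-igraph 0.11.9), without the 8 genes.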

Additional observations from a re-analysis of the deposited data

Results flagged for a closer look

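Scgb3a2 had log2 ratios of CPM of fibrosis over control of opposite sign in club-gated and in B cell-gated barcodes, 0.21 and -0.63. In mean UMIs per barcode it was lower in fibrosis in both classes. Club-gated barcodes held 174.8 in control and 151.7 in fibrosis, and B cell-gated barcodes 0.196 and 0.161. The sign in club cells was not stable, at -0.35 in clusters made without the 8 genes, -0.49 over all barcodes reaching the club cut and 0.0046 with the 8 genes left out of the totals. The difference between the ratios was not tested, since each rests on 1 library per group. Barcodes that reached no class cut entered none of the comparisons between gated classes. In the fibrosis library they held 560 CPM of Scgb3a1, 38.1 CPM of Reg3g and 14.8 CPM of Bpifb1, against 70.8, 0.908 and 0.454 CPM in the control library. Of the 940 fibrosis barcodes without a class, 10 held 94.6% of these Scgb3a1 UMIs, 95.8% of the Reg3g UMIs and 87.3% of the Bpifb1 UMIs. Their median was 3492 UMIs with 4 club markers, which is under the club cut, and 7 of the 10 held a goblet marker. In the control library 2 of 657 barcodes without a class held 84.6% of the Scgb3a1 UMIs, with no UMI of Reg3g or Bpifb1.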

How the results depend on the processing

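No paired analysis was possible because each group holds 1 mouse. Values are log2 ratios of fibrosis over control in club-gated cells. In clusters made without the 8 genes they were -0.46 for Scgb1a1, 0.59 for Scgb3a1, -0.35 for Scgb3a2 (reversed from 0.21), -2.09 for Bpifa1, -0.50 for Cyp2f2 and -0.70 for Cbr2. With 1 more marker per class they were -0.21 for Scgb1a1, 0.054 for Scgb3a1, -2.85 for Bpifa1, 0.71 for Bpifb1 and 0.60 for Reg3g. With the 8 genes left out of the totals they were -0.37 for Scgb1a1, 0.46 for Scgb3a1, 0.0046 for Scgb3a2, -1.66 for Bpifa1, -0.42 for Cyp2f2 and -0.75 for Cbr2. With the median of all genes subtracted they were -0.29 for Scgb1a1, 0.54 for Scgb3a1, 0.084 for Scgb3a2, -0.34 for Cyp2f2 and -0.67 for Cbr2. As a mean over cells Scgb3a1 was 0.60 and Cbr2 -0.63, and with the B cell level subtracted Scgb1a1 was -0.16.

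The next 3 alternatives were chosen after seeing the data. With a club cut of 4 markers the ratios were -0.21 for Scgb1a1, 1.02 for Scgb3a1 and 1.71 for Reg3g. Over all barcodes reaching the club cut they were -0.34 for Scgb1a1, 1.01 for Scgb3a1, -0.49 for Scgb3a2 (reversed), -0.56 for Bpifa1, 1.74 for Bpifb1 and -0.74 for Cbr2. Without the barcode holding most UMIs in each library they were 1.03 for Scgb3a1, 0.34 for Scgb3a2, 1.48 for Bpifa1 (reversed from -1.45) and 1.55 for Bpifb1. Where these values differ, the cause was not tested. With all UMIs, 60.5% of fibrosis club-gated cells held Scgb3a1. With at least 50 UMIs, 54 genes were past 2-fold upward and 10 downward. The other 57 ratios, shares and counts in club-gated cells stayed within the range of the value reported, and in other classes 15 did and 1 did not (Cyp2f2 in ciliated-gated cells, 0.26 in clusters against 0.10). Among the 57 are the ratios without doublet removal and with a floor of 1915 UMIs in both libraries. Those settings left the same 25 and 43 club-gated cells, so their ratios could not move and show no stability. Club-gated cells numbered 25 and 43, so single barcodes set the sums of Scgb3a1, Bpifa1, Bpifb1 and Reg3g, and no spread between mice is known.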
